A study of Mus musculus with 6 samples.

Results

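The interferon response and antigen presentation genes were examined here as a set of 41 named genes in whole pancreas, compared between mice lacking Rkip-1 (KO) and wild-type mice (WT). The members were chosen by gene symbol, and every probe set whose platform annotation gave exactly 1 gene, that gene being a member, was read. This gave 75 probe sets for 39 of the 41 genes, out of 18193 genes that could be named in this way. Isg15 and Ifi44 had no probe set with 1 symbol, so their expression was not analysed here. The values came from 6 Affymetrix arrays, 3 of Rkip-1 KO mice and 3 of WT mice, all aged 8 weeks, bred from a shared colony on a C57BL/6 background. The arrays measured total RNA of the whole organ, in which acinar cells predominate, so that a low value may mean few cells of a type or little RNA per cell, and these cannot be told apart. The labels do not describe the knockout allele.

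Type I interferons, made when cells sense foreign nucleic acid, act through JAK kinases to assemble a factor, with STAT2 and IRF9 among its subunits, that binds the interferon-stimulated response element (ISRE) in genes such as Ifit1 and Rsad2. Interferon gamma, made mainly by lymphocytes, acts through gamma-activated sequences (GAS) and induces Irf1, the guanylate-binding and immunity-related GTPases, and the genes that cut, carry and display peptides on major histocompatibility complex (MHC) molecules. Class I molecules are displayed by nearly all cells, and class II molecules mainly by dendritic cells, macrophages and B cells. Rkip-1, the product of Pebp1, is known as an inhibitor of the Raf to ERK cascade.

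The knockout pancreas showed no member gene that passed the test. By limma with Benjamini-Hochberg adjustment over all probe sets, 0 of the 39 measured genes had an adjusted p under 0.05, where 0.132% of all genes did (0.104% higher and 0.0275% lower in KO), and the lowest adjusted p of any member was 0.349. At an unadjusted p under 0.05 there were 2 members higher in KO, Irf1 and Irgm1, against a background of 4.55% of all genes, and 0 members lower, against 5.58%. The 2 members are 5.13% of the 39, a share near the background. The KO values lay wholly above the WT values in 1 member, Irf1, and wholly below them in 1 member, Rsad2, where 6.87% and 7.56% of all genes did so. Of the 39 genes 22 were higher and 17 lower in KO, with a median log2 difference of 0.03, beside a median of -0.00 over all genes tested. Differences ran from -0.30 for Ifit1 to 0.56 for Iigp1, and 34 of 39 were smaller than 0.3 in size. The 95% interval stayed within 1 log2 unit of 0 in 37 of 39. The exceptions were Iigp1 and H2-Aa, which varied widely between mice.

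**Figure D1:**
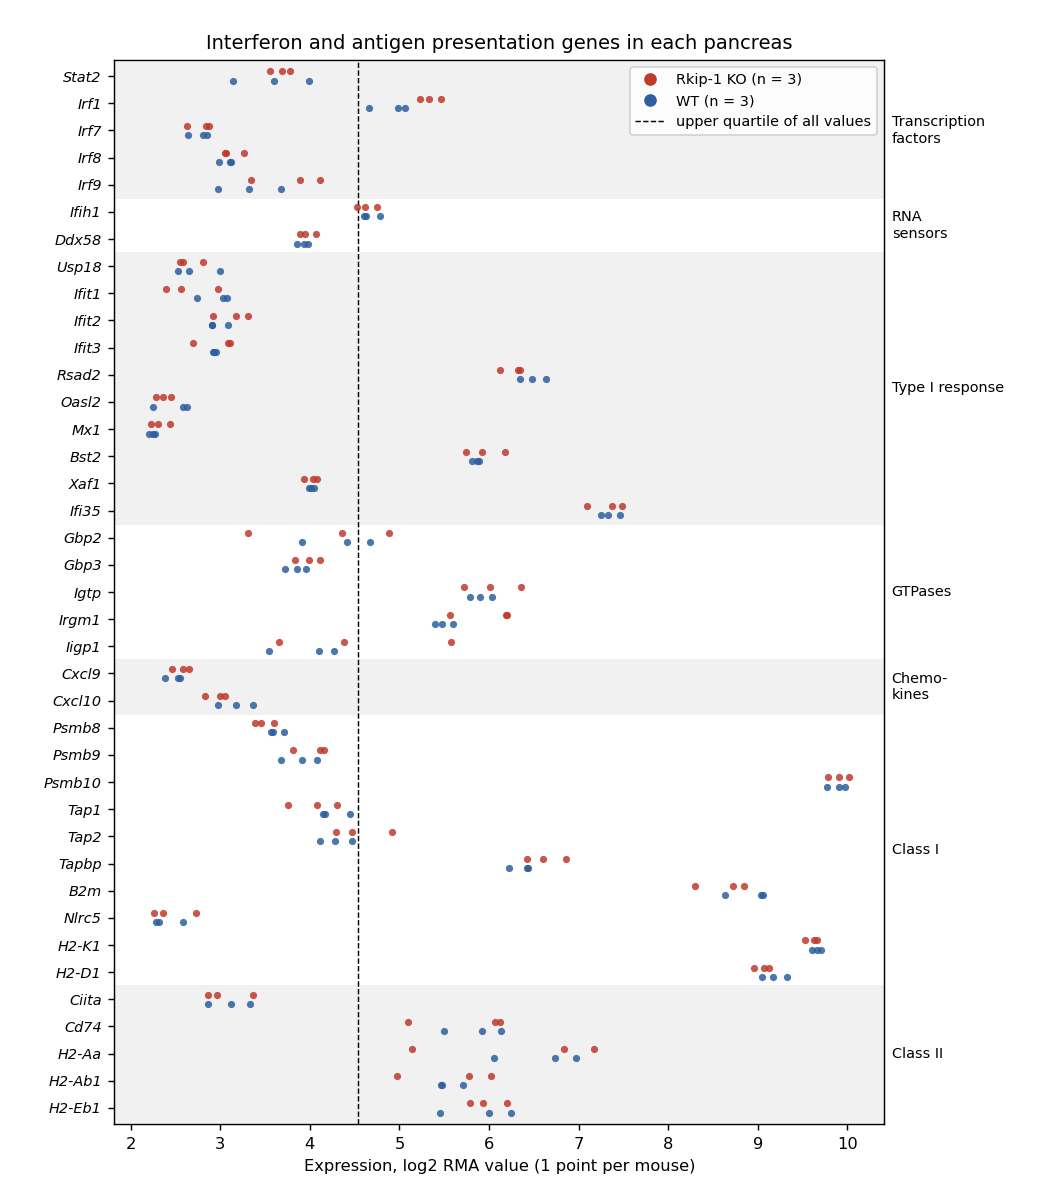
Log2 expression values (horizontal axis) of the 39 measured genes, grouped by role, with 1 point per mouse, KO in red and WT in blue; the dashed line is the upper quartile of all values on the arrays, 4.54. KO and WT points overlap in all genes but Irf1 and Rsad2, and 23 genes average below the line.

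As a check of the labels, Pebp1 measured 5.89, 6.50 and 5.71 in KO replicates 1, 2 and 3 and 9.81, 10.01 and 9.81 in WT replicates 1, 2 and 3. All KO values were below all WT values by over 3 log2 units, but they were above the upper quartile of all values, so signal remained, on a probe set whose suffix marks cross-binding. Column medians were 2.97 to 3.02 on the log2 scale and the correlation between any pair of arrays was 0.989 to 0.993. The acinar markers Cpa1, Cel, Ctrb1 and Cela1 were all at the top of the scale, so the tissue was pancreas by its defining markers. Xist, a transcript of female cells, was high in KO replicates 2 and 3 and WT replicate 3 and low in the others, so both groups held both levels in unequal numbers. The male markers Eif2s3y, Uty and Kdm5d were higher in each mouse with low Xist than in any with high Xist. KO replicate 1 was the only KO mouse with low Xist, so within KO its other traits cannot be told apart from sex. The labels do not give the sex. No detection calls were used here, so levels near the column medians cannot be told from background, and a difference at such a level may be too small. By that yardstick 16 of 39 members averaged above the upper quartile of all values, which was 41.0% of them, beside 39.3% of all genes.

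The promoters were searched for the sequence elements through which interferons act, and the sequences below show the matches for the genes that the results turn on. The windows ran from 250 bases before to 50 bases after each start in RefSeq's GRCm38.p6 annotation and existed for 33 of the 41 members. The ISRE core, TTCNNTTTC on either strand, was found in 16 of the 33, which was 48.5%, beside 9.76% of 27025 genes with a window. The GAS element, TTCNNNGAA, was found in 7 of the 33, which was 21.2%, beside 9.55% of all. All 4 GTPases with a window, both chemokines and 6 of 10 effectors of the type I response held the ISRE core, and 1 of 8 class I genes and 0 of 2 class II genes did. The 6 effectors included Isg15 and Ifi44, which had no expression value here, so these 10 are not the 10 effectors measured below. In Bst2 an ISRE core and a GAS element overlapped. A match is a run of letters and not proof of a bound site. A window without a match may still hold an element that departs from these letters. The 150 bases before the start are printed for Irf1 and Irgm1, the members with the smallest p, for Igtp, an immunity-related GTPase like Irgm1, and for Ifit1 and Rsad2, standard targets of type I interferon. Capitals mark the ISRE core, and in Irf1 and in the first block of Igtp the GAS element.

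Irf1, chr11:53769864-53770013, plus strand: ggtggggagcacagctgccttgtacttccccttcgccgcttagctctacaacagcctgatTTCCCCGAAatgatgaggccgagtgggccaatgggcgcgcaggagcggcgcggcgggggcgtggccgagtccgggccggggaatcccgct

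Irgm1, chr11:48871421-48871570, minus strand: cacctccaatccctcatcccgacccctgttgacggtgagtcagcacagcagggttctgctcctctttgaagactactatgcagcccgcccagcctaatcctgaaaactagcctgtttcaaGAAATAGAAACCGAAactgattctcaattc

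Igtp, chr11:58199406-58199555, plus strand: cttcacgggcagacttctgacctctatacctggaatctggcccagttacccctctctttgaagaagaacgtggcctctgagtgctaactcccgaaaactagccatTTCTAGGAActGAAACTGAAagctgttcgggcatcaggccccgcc

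Ifit1, chr19:34640739-34640888, plus strand: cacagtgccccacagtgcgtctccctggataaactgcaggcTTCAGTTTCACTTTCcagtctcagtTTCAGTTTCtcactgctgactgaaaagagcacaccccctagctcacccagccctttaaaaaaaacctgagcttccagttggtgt

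Rsad2, chr12:26456453-26456602, minus strand: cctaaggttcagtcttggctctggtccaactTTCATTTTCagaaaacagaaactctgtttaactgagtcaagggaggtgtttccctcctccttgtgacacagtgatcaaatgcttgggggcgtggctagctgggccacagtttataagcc

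The Irf1 window held a GAS element and no ISRE core, whereas Irgm1 held a pair of overlapping ISRE cores, read on the other strand. Ifit1 held 3 ISRE cores and Rsad2 held 1. A second annotated start of Irf1 had neither motif in its window.

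Among the transcription factors of the pathway, all 5 were higher in KO and 0 passed. Irf1, which interferon gamma induces within hours and which then activates further interferon genes, measured 5.23, 5.46 and 5.33 in KO replicates 1 to 3 and 4.66, 5.07 and 4.99 in WT replicates 1 to 3. Each KO mouse lay above each WT mouse. The difference was 0.44 on the log2 scale, a 1.36-fold higher level (95% interval 0.17 to 0.71 in log2, limma adjusted p 0.349). It stayed between 0.32 and 0.52 in the 14 alternative analyses that held the gene, and its unadjusted p was under 0.05 in all 14 of them. Irf9, the DNA-binding subunit of the type I factor, measured 4.11, 3.89 and 3.35 in KO and 3.67, 2.98 and 3.32 in WT. Its groups overlapped, and its difference of 0.46 had an interval of -0.02 to 0.94 (limma adjusted p 0.593). Stat2, which joins Irf9 in that factor, differed by 0.10, at 3.67 ± 0.12 in KO and 3.58 ± 0.42 in WT (mean ± SD, n = 3 each). Irf7, the amplifier of type I interferon production, and Irf8, a factor of myeloid and dendritic cells, averaged 2.76 to 3.13 in both groups, near the column medians, with differences of 0.02 and 0.06.

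The cytoplasmic RNA sensors did not differ beyond their spread. Ifih1 (MDA5) measured 4.63 ± 0.12 in KO and 4.67 ± 0.10 in WT (SD, n = 3 each), and its interval of -0.26 to 0.18 leaves room for small changes alone. Ddx58 (RIG-I) measured 3.97 ± 0.09 and 3.92 ± 0.06.

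The effectors and feedback genes of the type I response were mostly at background level in both genotypes. Of the 10 measured, 4 were higher and 6 lower in KO, 0 passed, and the median difference was -0.02. Ifit1 and Mx1 were among the lowest values, while Rsad2, another target given below, averaged above the upper quartile. Ifit1 measured 2.56, 2.97 and 2.39 in KO and 3.07, 3.03 and 2.74 in WT, and Mx1, a GTPase, lay between 2.21 and 2.44 in all mice. Both lie below or near the column medians, so neither genotype showed a level of these transcripts that the arrays could tell from background. Usp18, which removes Isg15 from proteins and damps the receptor, Ifit2 and Ifit3, which bind viral RNA, and Oasl2, an oligoadenylate synthetase-like protein, averaged 2.37 to 3.14, with differences from -0.12 to 0.17. Xaf1, an interferon-induced promoter of apoptosis, differed by -0.00 at a level of 4.01 in KO.

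Only 3 effectors averaged above the upper quartile. Rsad2 (viperin), an enzyme that makes a chain-terminating nucleotide against viral RNA synthesis, measured 6.12, 6.33 and 6.34 in KO and 6.35, 6.63 and 6.48 in WT. All KO values were below all WT values, but KO replicate 3 and WT replicate 1 were almost level. The difference was -0.22 (95% interval -0.46 to 0.02, limma adjusted p 0.61). Its other probe sets, near the column medians, differed by 0.04 and -0.17. Bst2 (tetherin), which holds budding virus at the cell surface, measured 5.74, 5.92 and 6.18 in KO and 5.86, 5.88 and 5.81 in WT, so that the WT mice were close together and the KO mice straddled them. Ifi35, a modulator of interferon signalling, measured 7.32 ± 0.20 in KO and 7.35 ± 0.10 in WT, with an interval of -0.29 to 0.23. Its dimmer probe sets, also above the upper quartile, differed by 0.11 and -0.05.

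**Figure D2:**
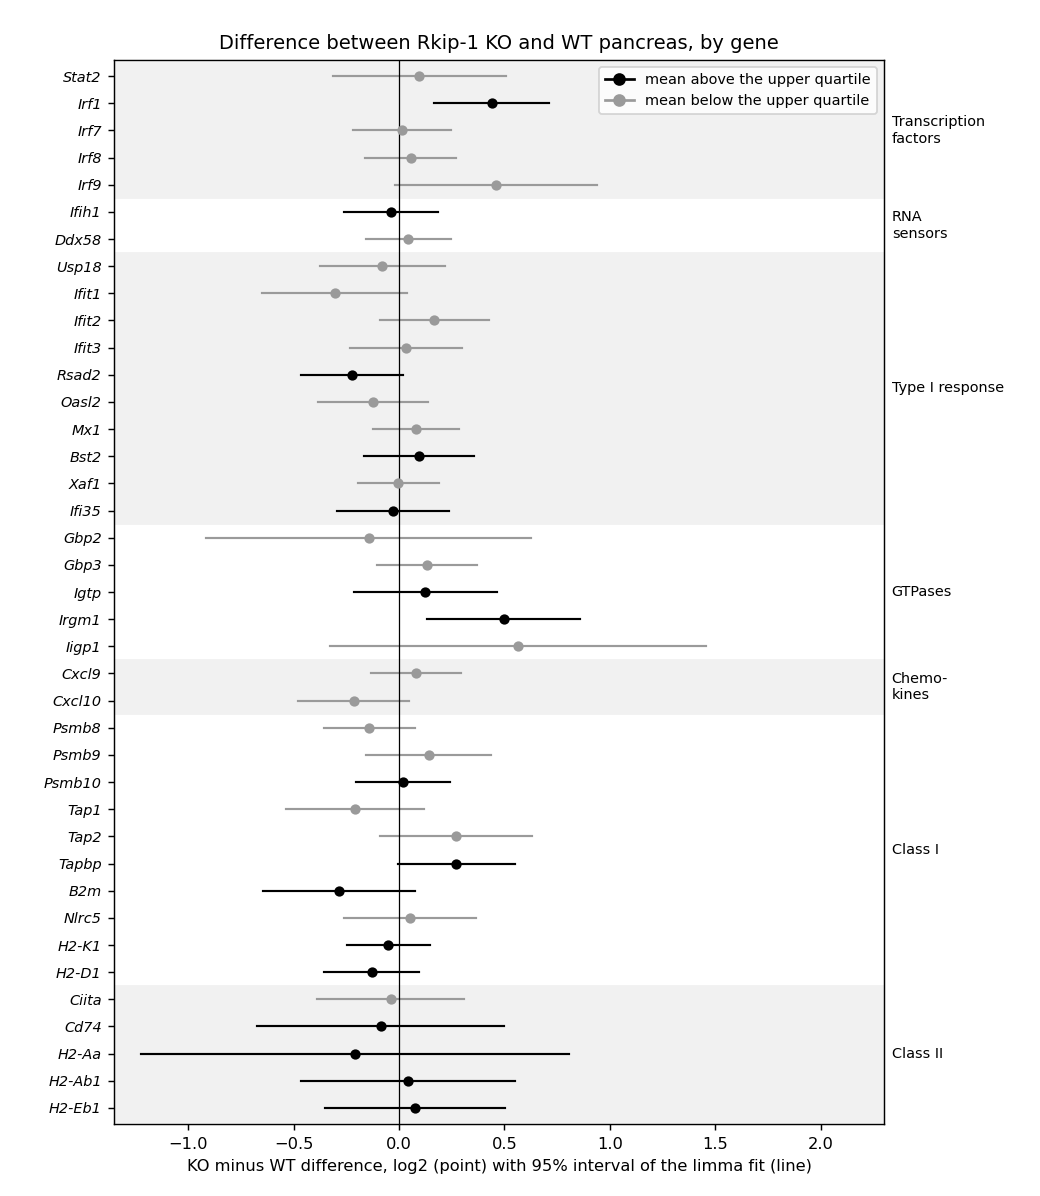
KO minus WT difference on the log2 scale (points) with the 95% interval of the limma fit (lines) for the 39 genes by role; black marks a gene that averages above the upper quartile of all values and grey one below it. The interval leaves out 0 in Irf1 and Irgm1, and it is widest in H2-Aa and Iigp1.

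The interferon-inducible GTPases, which coat and break open the vacuoles of intracellular parasites and bacteria, held the largest differences of the set. Of the 5, 4 were higher in KO, 0 passed, and the median difference was 0.13. Irgm1, a regulator that keeps the other immunity-related GTPases off self membranes and supports autophagy, measured 6.20, 6.19 and 5.57 in KO and 5.60, 5.40 and 5.47 in WT. KO replicates 1 and 2 were high, while KO replicate 3 lay within the WT range. The difference was 0.50, a 1.41-fold higher level (95% interval 0.13 to 0.86, limma adjusted p 0.424). Left out in turn, the mice gave values from 0.39 to 0.70, with an adjusted p of 0.111 without KO replicate 3, the lowest for any member under any setting. The unadjusted p was under 0.05 in 13 of 15 alternatives, and not without KO replicate 1 or without KO replicate 2.

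By their brightest probe sets, the other GTPases differed more between mice than between genotypes. Iigp1, an effector that acts on the parasite vacuole, measured 3.66, 5.58 and 4.38 in KO and 3.55, 4.27 and 4.10 in WT. KO replicate 2 stood over 1 log2 unit above the WT range and KO replicate 3 just above it, and the difference of 0.56 was 0.04 without KO replicate 2 and 1.00 without KO replicate 1. A dimmer Iigp1 probe set gave 3.66, 4.18 and 3.76 against 3.40, 3.51 and 3.44, groups that did not overlap. There the difference was 0.42, with a limma unadjusted p of 0.0104 and an adjusted p of 0.405. Gbp2 measured 3.31, 4.89 and 4.36 in KO and 3.91, 4.68 and 4.41 in WT, so KO replicate 1 was lowest and KO replicate 2 highest. Igtp showed the same order of the KO mice at a narrower range, at 5.72, 6.36 and 6.01 in KO against 5.79, 6.03 and 5.90 in WT. Gbp3 differed by 0.13. The brightest probe sets of Gbp2 and H2-Aa carry a suffix for cross-binding, so related genes may add to those values.

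Neutrophil markers also peaked in KO replicate 2. S100a8, a granule protein of neutrophils, measured 2.82, 7.24 and 4.39 in KO and 2.82, 4.43 and 3.18 in WT, and S100a9, its partner, measured 2.51, 5.85 and 3.49 against 2.26, 3.15 and 2.56. Both measured genes of that list were highest in KO replicate 2, as were Iigp1, Gbp2, Gbp3 and Igtp but not Irgm1. Of all 39 members 11 were highest in that mouse, 10 in KO replicate 3 and 10 in WT replicate 2. Among members above the upper quartile 3 of 16 were highest in KO replicate 2, beside 10.6% of all genes above it. KO replicate 3 and WT replicate 2 were each highest in 5 of the 16, beside 14.9% and 21.6% of those genes. The summed level of the neutrophil list, on the linear scale, ran from 12.8 to 208 in KO and 11.9 to 30.5 in WT. Irgm1 measured 6.20 in KO replicate 1 and 6.19 in KO replicate 2. The part of neutrophils in the GTPase values was not tested.

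The chemokines that call activated T cells to inflamed tissue were at background in both genotypes. Cxcl10 measured 2.83, 3.05 and 3.00 in KO and 2.98, 3.37 and 3.18 in WT, and Cxcl9 lay between 2.38 and 2.65 in all mice. Their differences were -0.22 and 0.08.

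The class I pathway combined abundant display molecules with dim inducible subunits, and its 10 genes split evenly, with 5 higher and 5 lower in KO, 0 passed and a median difference of -0.02. The heavy chain genes H2-K1 and H2-D1 were nearly level across mice, at 9.60 ± 0.07 in KO and 9.65 ± 0.05 in WT for H2-K1 and 9.05 ± 0.08 and 9.18 ± 0.14 for H2-D1 (SD, n = 3 each). Their intervals, -0.25 to 0.14 and -0.35 to 0.10, are among the narrower ones. The brightest probe sets of both carry a suffix that marks cross-binding to related sequences, and class I genes are near-identical copies, so each value may hold signal of the other and of further class I genes. The other H2-D1 probe sets differed by -0.08 to 0.14. B2m, the light chain that all class I molecules share, measured 8.30, 8.85 and 8.72 in KO and 8.64, 9.06 and 9.04 in WT. KO replicate 1 was the lowest mouse and the groups overlapped. The difference was -0.29 (95% interval -0.65 to 0.07, limma adjusted p 0.668), or -0.12 without KO replicate 1, and a second B2m probe set gave -0.22.

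Peptide supply for class I was measured at the immunoproteasome and at the transporter. Psmb10, an immunoproteasome subunit, was high in all mice, at 9.90 ± 0.12 in KO and 9.88 ± 0.10 in WT. The other inducible subunits were dim, with Psmb8 at 3.48 ± 0.11 and 3.62 ± 0.08 and Psmb9 at 4.03 ± 0.19 and 3.89 ± 0.20. Tap1 and Tap2, the subunits of the peptide pump into the endoplasmic reticulum, went in opposite directions, with differences of -0.21 and 0.27, and both averaged below the upper quartile. Tapbp (tapasin), which bridges the pump to class I molecules, measured 6.42, 6.86 and 6.61 in KO and 6.22, 6.44 and 6.42 in WT. Its lowest KO value was level with the upper WT values, and its difference of 0.27 had an interval of -0.01 to 0.55 (limma adjusted p 0.587). Nlrc5, the transactivator of class I genes, averaged 2.45 in KO and 2.39 in WT, near background.

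The class II genes differed widely between mice and little between genotypes. Of the 5, 2 were higher and 3 lower in KO, 0 passed, and the median difference was -0.04. H2-Aa, an alpha chain of class II, measured 5.14, 6.84 and 7.17 in KO and 6.06, 6.97 and 6.74 in WT. KO replicate 1 stood lowest and KO replicate 3 highest, so that the KO mice spanned the whole WT range. Over the 6 mice the values spread by 2.04 log2 units, and 0.405% of all genes above the upper quartile spread more widely. Cd74, the invariant chain that guards the class II groove, followed with 5.09, 6.07 and 6.12 in KO and 5.50, 6.13 and 5.92 in WT. H2-Ab1, a beta chain, measured 4.97, 5.78 and 6.03 against 5.46, 5.71 and 5.48. H2-Eb1, another class II beta chain gene, measured 5.93, 5.79 and 6.20 against 5.45, 6.00 and 6.25, and there WT replicate 1 was lowest. Ciita, the master activator of class II genes, averaged 3.06 and 3.10 in KO and WT, near background.

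The class II differences depended on which mice were included. With all mice, H2-Aa differed by -0.21, Cd74 by -0.09 and H2-Ab1 by 0.04. Without KO replicate 1, the differences were 0.42, 0.25 and 0.35, with limma adjusted p of 0.73, 0.781 and 0.573. Without KO replicate 3 all 3 were negative, with H2-Aa at -0.60, Cd74 at -0.27 and H2-Ab1 at -0.18. Cd74 also turned positive, at 0.05, without WT replicate 2. H2-Eb1 differed by 0.08 with all mice, by 0.10 without KO replicate 1 and by -0.15 without WT replicate 1. No setting gave a class II gene an adjusted p under 0.05. Leaving out KO replicate 1 also leaves only KO mice with high Xist.

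**Figure D3:**
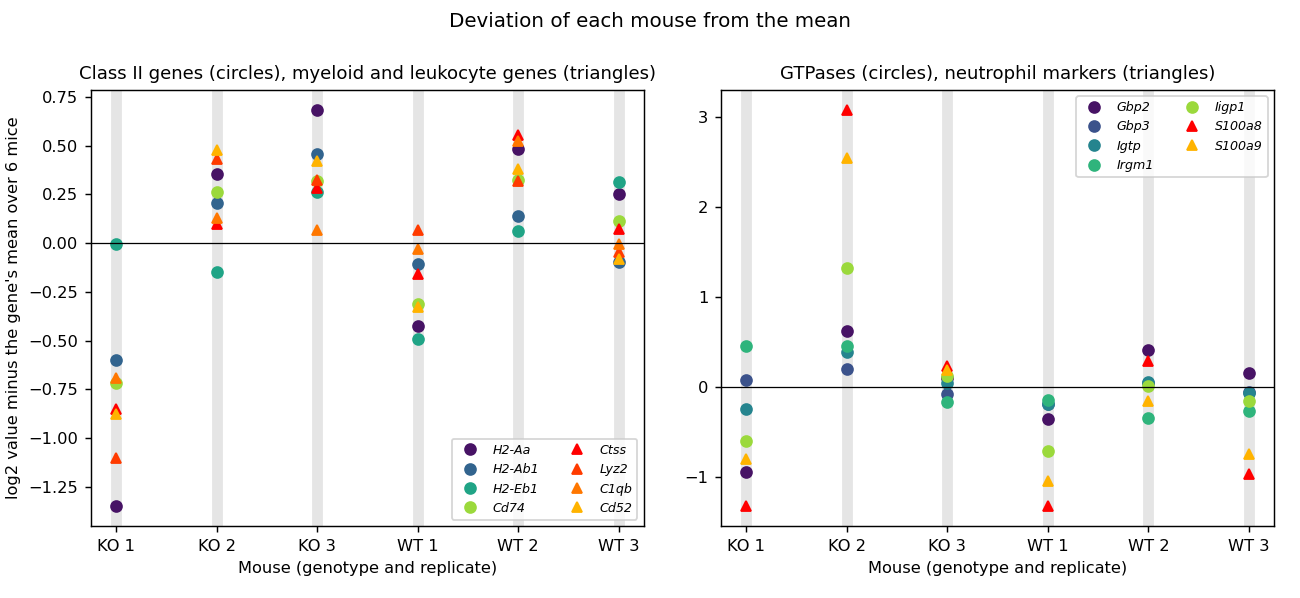
Log2 value of each gene in each mouse minus the gene's mean over 6 mice; left, class II genes (circles) with Ctss and the leukocyte markers Lyz2, C1qb and Cd52 (triangles), right, GTPases (circles) with neutrophil markers (triangles). On the left H2-Aa, H2-Ab1, Cd74 and all triangles are lowest in KO replicate 1, and on the right S100a8, S100a9 and Iigp1 peak in KO replicate 2. The left triangles were picked after their values were seen. Over all leukocyte lists 12 of 30 markers were lowest in KO replicate 1, and markers such as Coro1a, Adgre1, Cd14 and Cd68 were lowest in other mice.

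Most macrophage markers and most of the brighter leukocyte markers were lowest in KO replicate 1, but T cell markers were not. Of 7 leukocyte markers above the upper quartile, 6 were lowest in KO replicate 1, and over the whole of the leukocyte lists 12 of 30 were. Of the 8 macrophage markers 5 were lowest there. Adgre1 was lowest in KO replicate 2, Cd14 in KO replicate 3 and Cd68 in WT replicate 2. Lyz2 (lysozyme of myeloid cells) measured 6.57, 8.10 and 7.99 in KO and 7.74, 7.99 and 7.63 in WT. Ctss (cathepsin S, which trims the invariant chain), from the list of further class II genes, measured 6.03, 6.98 and 7.17 against 6.73, 7.44 and 6.96, and it too was lowest in KO replicate 1. The mean log2 level of the 8 macrophage markers was 5.12 in KO replicate 1 and 5.48 to 5.73 in the other 5 mice. Summed on the linear scale, the 30 leukocyte markers ran from 607 to 1191 in KO and 868 to 1184 in WT. The dendritic cell markers Itgax, Flt3, Xcr1 and Siglech were near the column medians in all mice. The T cell markers were all below the upper quartile on average and did not follow this order. Cd3e, Cd4 and Cd8a were highest in KO replicate 1, at 3.25, 4.62 and 4.52. Cd3d and Cd3g were highest in KO replicate 3, at 3.10 and 2.49, and measured 2.71 and 2.34 in KO replicate 1. The part of leukocyte content in the class II values was not tested. Among the members above the upper quartile 10 of 16 were lowest in KO replicate 1, beside 22.1% of all genes above it.

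**Figure D4:**
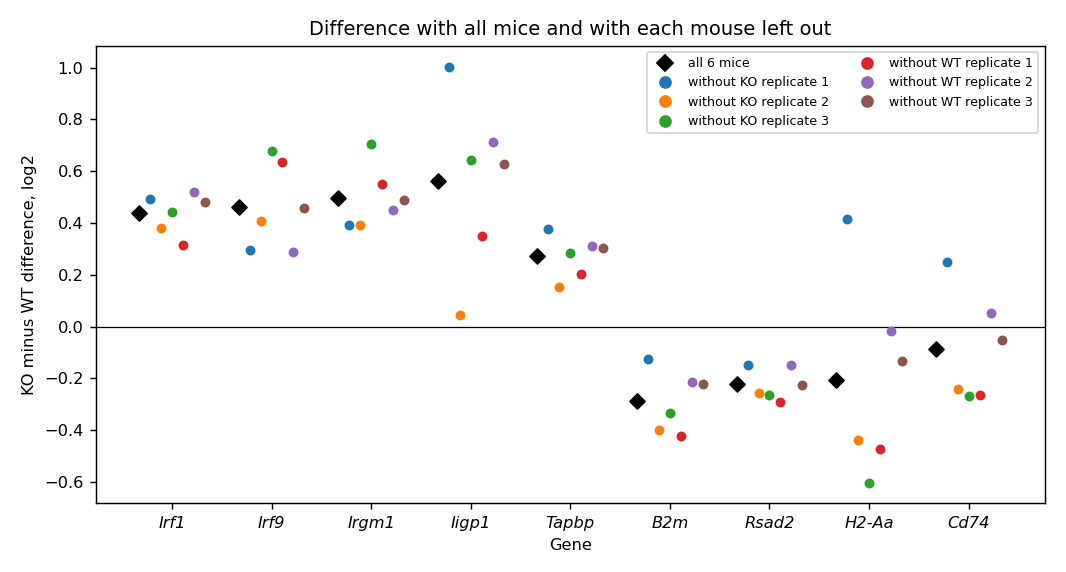
KO minus WT difference on the log2 scale for 9 members with all 6 mice (black diamonds) and with each mouse left out in turn (coloured points). Irf1, Irf9, Irgm1, Iigp1 and Tapbp stay above 0 and B2m and Rsad2 below it, while H2-Aa and Cd74 change sign without KO replicate 1, and Cd74 also without WT replicate 2.

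Further genes of the pathway were read from 8 lists of 136 entries, of which 111 were measured. Of these, 0 passed by limma. Counted by unadjusted p under 0.05, 8 were higher in KO and 2 were lower, against 4.55% and 5.58% of all genes, and the lowest adjusted p was 0.161. KO values lay wholly above WT values in 12 of the 111 and wholly below them in 5, against 6.87% and 7.56% of all genes. The interferon ligands were at or near background, with 0 of 7 above the upper quartile. Ifnz and Ifng, the 2 of smallest p, differed by 0.15 and 0.17.

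Among the 13 measured receptors, kinases and STATs, 4 were higher and 9 lower in KO, with a median difference of -0.06. Unadjusted p fell under 0.05 in 3, all higher in KO. Over all genes 4.55% were higher and 5.58% lower by this rule. Stat3, the factor downstream of interleukin-6, measured 7.52, 6.77 and 6.98 in KO and 6.23, 6.13 and 6.39 in WT, with a difference of 0.84 (limma adjusted p 0.203). Socs3, a feedback inhibitor that Stat3 induces, measured 7.13, 6.22 and 5.89 against 5.23, 4.41 and 5.40, a difference of 1.40 (limma adjusted p 0.255). In both the KO mice lay above the WT mice. The Socs3 probe set carries the suffix for cross-binding. Ifnlr1, the third gene by p, differed by 0.31 at a level below the upper quartile (limma adjusted p 0.334). Over the list KO values lay wholly above WT values in 3 genes and wholly below them in 2, against 6.87% and 7.56% of all genes.

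Of 18 measured genes of nucleic acid sensing, 13 were higher and 5 lower. In 3 of the higher ones the unadjusted p was under 0.05, against 4.55% of all genes. Myd88, the adaptor of Toll-like and interleukin-1 receptors, measured 6.26, 5.96 and 5.92 in KO and 5.34, 5.55 and 5.43 in WT. The groups did not overlap, and the difference was 0.61 (limma adjusted p 0.161). Trim25, a ubiquitin ligase that activates RIG-I, differed by 0.23.

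Of 34 measured further genes of the type I response, 17 were higher and 17 lower. In each direction 1 had an unadjusted p under 0.05, against 4.55% of all genes higher and 5.58% lower. Ifitm3, a membrane protein that blocks virus entry, measured 10.28, 10.41 and 10.07 in KO and 9.75, 9.64 and 9.38 in WT, a difference of 0.66 (limma adjusted p 0.166). Cmpk2, a mitochondrial nucleotide kinase, went the other way with 5.17, 5.55 and 5.39 against 5.69, 5.98 and 6.17, a difference of -0.58 (limma adjusted p 0.276). Cmpk2 is the next protein-coding gene to Rsad2 on chromosome 12, and both had all KO values below all WT values. In Ifitm3, Cmpk2 and Rsad2 the KO and WT mice did not overlap, but none passed the threshold. Of the 34 genes, KO values lay wholly above WT values in 2 and wholly below them in 1, against 6.87% and 7.56% of all genes.

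The remaining lists held small differences. Gbp2b and Gbp8 were the GTPases of smallest p among 6, with differences of 0.21 and 0.16. Among 15 further class I genes, H2-Q10 differed by -0.25 at a level near the column medians, and Pdia3, a chaperone that class I assembly shares with other folding, by -0.38. Among 11 class II genes, H2-DMb2 and H2-Oa, accessory chains of peptide exchange, differed by 0.26 and 0.19 near background. Ccl2 and Cxcl11 were the chemokines of smallest p among 7, with differences of -0.16 and 0.14.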

How the data were processed

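RNA from whole pancreas of 3 KO and 3 WT mice was measured on 1 Affymetrix array each. The deposited values are log2 values per probe set, and the submitters' processing notes name RMA and affy. For these tools no version is given in the sources used here. RMA equalises the arrays' distributions, so a shift shared by most genes cannot be seen. Of 45101 probe sets, 64 controls were left out and 45037 fitted on genotype alone by limma (lmFit, eBayes; version 3.58.1, R 4.3.3). The contrast was KO minus WT and the test two-sided, with 9.53 degrees of freedom. P-values were adjusted by Benjamini-Hochberg over all 45037, and the threshold was 0.05. Where the labels call samples biological replicates, the number of arrays still limits the precision. For each gene the brightest probe set was read among those with 1 symbol in the platform annotation, updated by Entrez identifier to GRCm38.p6. The test was checked on simulated data. The members, the other lists, the motifs and the rule for named genes (all members by role, and from each other list the 2 genes of smallest p) were chosen with earlier results of these data known. Ctss, Ifnlr1 and the individual cell type markers given with values were picked after their values were seen. Of the motifs, matches on both strands were counted, overlaps included. Alternatives were other normalizations, filters, variance models, array weights, covariates, a replicate block, single arrays left out and other probe set choices. Figures were drawn with matplotlib 3.10.9.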

Additional observations from a re-analysis of the deposited data

How the results depend on the processing

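No member passed in any alternative, and the median member difference moved by less than the spread between replicates, from -0.04 to 0.09. Of 549 recomputed member differences 51 changed sign, none of them past the threshold, and 18 of 39 genes never changed sign. Besides the brightest, the members had 36 other probe sets, and 16 of these differed in the opposite direction to the brightest. The members with an unadjusted p under 0.05 were 2, and 7 with a replicate block, 4 with the Xist level as a covariate and 2 to 7 with single arrays left out (KO replicate 1 gave 6, KO replicate 2 gave 4 and WT replicate 1 gave 7). Same-numbered KO and WT arrays had deviations correlated at 0.19, -0.03 and -0.08, so the numbers were not taken as pairs. Over the whole array 44 probe sets passed, 33 with the replicate block, 22 with the Xist covariate, 25 without suffixed probe sets, 76 at an adjusted p under 0.1, and 16 to 41 with single arrays left out. The lower of these were 16 when WT replicate 2 was dropped, 18 for KO replicate 2, 24 for KO replicate 1 and 26 for WT replicate 1. These fits hold fewer arrays, fewer probe sets or an added term. For the 23 members that average below the upper quartile, signal was not separated from background here, which limits what their differences can show.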

Other observations

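Jchain varied more between the mice than the other B and plasma cell markers measured. Jchain, which joins secreted IgA and IgM, measured 2.46, 4.80 and 6.14 in KO replicates 1, 2 and 3 and 4.43, 7.49 and 5.89 in the WT replicates, so KO replicate 1 was lowest here too. Its difference of -1.47 had a limma adjusted p of 0.702. Ms4a1 (CD20), of B cells, had its lowest value in the same mouse, at 2.74 against 3.09 to 3.89 in the others. Cd79a and Cd79b, also of B cells, lay between 2.71 and 3.16 in all mice and were lowest in WT replicates 1 and 2.

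Tap1 and Psmb9 are neighbours on chromosome 17 with no other protein-coding gene between them, and their promoter windows overlap on opposite strands. Tap1 differed by -0.21 and Psmb9 by 0.14, each with groups that overlapped and a level below the upper quartile.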
